A study of Homo sapiens with 4 samples.

Results

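The 10 genes described here are *POU5F1*, *NANOG*, *SOX2*, *LIN28A*, *LIN28B*, *DPPA2*, *DPPA3*, *DPPA4*, *DPPA5* and *ZFP42*, which are known for their expression in pluripotent stem cells, germ cells or the early embryo. They were chosen by name, and every gene probe whose RefSeq accession belongs to one of them was taken. This gave 11 probes of 58201, or 10 of the 25006 genes that could be named, with a pair of probes for *POU5F1* and 1 for each other gene. Their expression was measured in HML58-3 cells, a derivative of the colon cancer line HCT116 in which a methylated promoter drives a luciferase reporter. Cells were seeded on day 0, were given mock treatment or a drug at 1 μM (DAC, OR-2100 or OR-2003) on day 1, and were collected on day 5. The paper states this schedule for its reporter assay, and its array methods give no days. DAC, or decitabine, is a deoxycytidine analogue that is built into DNA and traps DNA methyltransferases. OR-2003 and OR-2100 are prodrugs of DAC with a trialkylsilyl group on the 5′ oxygen of the sugar, which carries 1 propyl and otherwise methyl chains in OR-2003 and only ethyl chains in OR-2100. The mock array is also called non-treated in the study.

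The core pluripotency factors POU5F1 (OCT4), SOX2 and NANOG bind jointly to regulatory DNA and hold embryonic stem cells in an undifferentiated state. Around them stand genes that are silenced in most adult cells, many of them by methylation of their promoters, among them the *DPPA* genes, the zinc finger gene *ZFP42* (REX1) and the RNA-binding genes *LIN28A* and *LIN28B*, whose proteins block the maturation of the let-7 microRNAs. Several of these genes are active again in germ cell tumors and other cancers.

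There was 1 one-colour Agilent array per condition, so that no value has a replicate, no test was possible and no p-value is given. Levels below are log2 intensities on a scale where 0 is the 75th percentile of gene probes on the same array, and differences are drug minus mock on that log2 scale. A probe was called induced when its difference was 2-fold or more upward and its level with the drug was -1 or more, and reduced when the difference was 2-fold or more downward from a mock level of -1 or more. A probe was well above background when the scanner software marked it so in more than 0.5 of its unmarked spots. Where a gene was at background (not well above it) on the mock array, its fold is given as "at least", against the higher of its own mock level and the lowest level well above background there, -4.29, and a gene at background only on the drug array was set in the same way against the higher of its own level and that array's limit. A fold set against a gene's own level is a point estimate and no bound. The 4 arrays lay on 1 slide, 31601 to 33282 probes per array were well above background and none was saturated, and 52 to 98 marked gene spots per array were left out, none of them of the 10 genes. The slope of the spike-in controls was 0.899 on the mock array, which the software called out of range, and 0.913 to 0.955 on the drug arrays, which it did not, and its part in the differences was not tested. Relative to the 75th percentile, the median of all probes shifted by -0.13 with DAC, -0.10 with OR-2003 and -0.25 with OR-2100. Repeat spots of the 300 probes spotted 10 times had a median SD of 0.058 to 0.066 where the level was -1 or more, and 0.25 to 0.60 where it was not well above background. Precision is limited by the number of arrays.

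The same genes were called with all 3 drugs, in comparisons that share the 1 mock array. In total, 5 of the 10 genes, *ZFP42*, *LIN28B*, *DPPA2*, *DPPA4* and *DPPA5*, were induced by each drug, *NANOG* was reduced by each drug, and the other 4 were neither. Of all probes on the arrays, 3.44% were induced by DAC, 3.53% by OR-2003, 3.5% by OR-2100 and 3.13% by all 3, against 5 of the 11 probes described here. Reduced probes made up 4.03%, 4.07%, 4.49% and 3.41% in the same order, against 1 of 11. With 1 probe per gene, 5.27% of all named genes were induced by all 3 drugs and 5.21% reduced, against 5 and 1 of the 10 genes. Of the 11 probes, 7 were at background without drug, and 5 of these 7 were well above background on all 3 drug arrays. Over all 25006 named genes, 16965 were well above background without drug. Of the rest, 1570 were well above it on all 3 drug arrays, so that many other genes made this switch too.

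**Figure D1:**
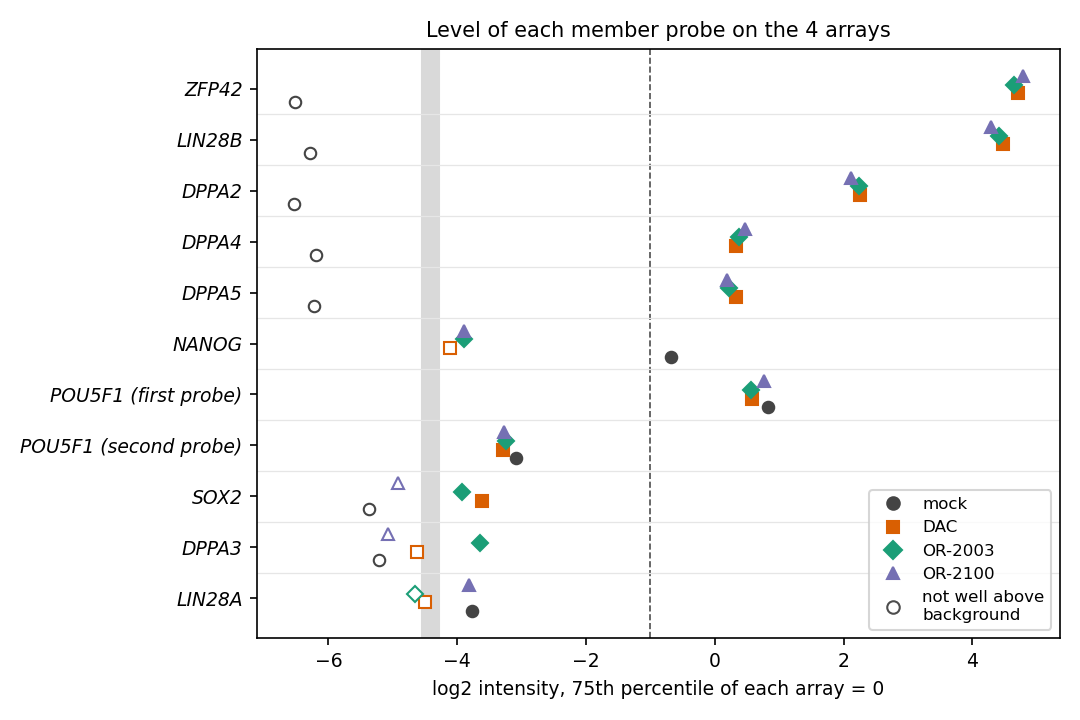
Level of each of the 11 probes (rows) on the 4 arrays (symbols), as log2 intensity with the 75th percentile of each array at 0. Open symbols were not well above background, the grey band spans the background limits of the arrays (-4.55 to -4.29) and the dashed line marks -1, the level of positive expression. In the top 5 rows the mock symbol lies left of the band and the 3 drug symbols lie together right of the line, while in the *NANOG* row only the mock symbol lies right of it.

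Promoter sequences are printed for the 6 genes that were called, since DAC lowers methylation at CG. They are the windows of RefSeq on GRCh38.p14 from 250 bases before to 50 bases after a transcription start, written 5′ to 3′ on the strand of the gene in lower case, with every CG in capitals. The *ZFP42* window is chr4:187995521-187995820 on the plus strand. *LIN28B* had a pair of windows on the plus strand, chr6:104940715-104941014 (window 1) and chr6:104956857-104957156 (window 2). Minus strand windows are those of *DPPA2*, chr3:109316468-109316767, *DPPA4*, chr3:109337497-109337796, and *DPPA5*, chr6:73354227-73354526. The *NANOG* window is chr12:7789152-7789451 on the plus strand.
ZFP42: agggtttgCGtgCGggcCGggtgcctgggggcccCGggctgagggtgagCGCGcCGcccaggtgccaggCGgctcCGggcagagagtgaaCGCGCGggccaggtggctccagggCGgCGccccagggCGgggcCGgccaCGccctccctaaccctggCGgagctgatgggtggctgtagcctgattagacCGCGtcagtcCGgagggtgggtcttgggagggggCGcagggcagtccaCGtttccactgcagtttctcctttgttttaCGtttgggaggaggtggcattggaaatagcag
LIN28B, window 1: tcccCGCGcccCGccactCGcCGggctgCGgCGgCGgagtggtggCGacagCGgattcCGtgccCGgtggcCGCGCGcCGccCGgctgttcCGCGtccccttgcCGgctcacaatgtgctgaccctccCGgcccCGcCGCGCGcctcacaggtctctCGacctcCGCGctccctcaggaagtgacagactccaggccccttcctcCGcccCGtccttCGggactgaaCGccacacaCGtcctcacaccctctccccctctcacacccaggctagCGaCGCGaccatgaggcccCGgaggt
LIN28B, window 2: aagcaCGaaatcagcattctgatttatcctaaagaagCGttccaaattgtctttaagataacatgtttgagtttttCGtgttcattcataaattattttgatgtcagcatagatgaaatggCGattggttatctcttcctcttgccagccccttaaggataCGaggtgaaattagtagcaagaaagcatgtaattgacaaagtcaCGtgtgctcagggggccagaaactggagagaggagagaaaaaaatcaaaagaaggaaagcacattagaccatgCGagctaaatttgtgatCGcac
DPPA2: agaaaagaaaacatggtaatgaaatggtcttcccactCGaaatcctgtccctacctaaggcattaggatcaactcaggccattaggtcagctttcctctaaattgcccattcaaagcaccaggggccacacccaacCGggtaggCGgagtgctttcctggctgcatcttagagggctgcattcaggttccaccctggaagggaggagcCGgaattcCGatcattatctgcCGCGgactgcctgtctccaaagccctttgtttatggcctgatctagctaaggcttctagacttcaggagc
DPPA4: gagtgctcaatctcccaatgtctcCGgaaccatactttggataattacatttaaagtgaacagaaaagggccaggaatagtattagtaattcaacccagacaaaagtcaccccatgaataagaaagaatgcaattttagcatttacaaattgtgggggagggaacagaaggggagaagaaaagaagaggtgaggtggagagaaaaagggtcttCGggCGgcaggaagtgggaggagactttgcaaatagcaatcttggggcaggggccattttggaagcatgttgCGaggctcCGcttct
DPPA5: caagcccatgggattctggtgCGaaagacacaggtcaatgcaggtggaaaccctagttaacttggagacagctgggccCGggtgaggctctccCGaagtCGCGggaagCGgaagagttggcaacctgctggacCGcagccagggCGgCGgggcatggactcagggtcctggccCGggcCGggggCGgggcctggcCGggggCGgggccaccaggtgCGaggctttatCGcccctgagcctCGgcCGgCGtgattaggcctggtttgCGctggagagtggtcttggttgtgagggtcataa
NANOG: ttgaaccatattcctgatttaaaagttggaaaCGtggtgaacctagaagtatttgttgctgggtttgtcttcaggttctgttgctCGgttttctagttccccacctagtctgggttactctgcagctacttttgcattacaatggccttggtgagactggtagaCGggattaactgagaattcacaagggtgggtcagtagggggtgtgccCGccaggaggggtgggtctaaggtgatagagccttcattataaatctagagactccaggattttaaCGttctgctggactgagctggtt

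The printed windows differed in their number of CG, and only *LIN28B* window 1 lay outside the quartiles of all windows given below. *LIN28B* window 1 held 37 CG, more than 88.7% of the 35116 promoter windows of the same length, *ZFP42* held 24, more than 66.1%, and *DPPA5* held 20, more than 58.8%. *LIN28B* window 2 held 8 CG, *DPPA2* 7, *DPPA4* 5 and *NANOG* 5, against a median of 14 and quartiles of 4 and 28 over all windows. Among the genes that were not called, *SOX2* held 20 CG and *DPPA3* held 6. *POU5F1* and *LIN28A* had no window. Induced genes thus stood on both sides of the median, and the gene that was reduced had as few CG as *DPPA4*, which was induced. The E-box letters CACGTG, which occur on either strand in 7.26% of all windows, were found in *LIN28B* window 2 only, at -47 from the start. The E2F letters GCGGGA, present in 26.9% of all windows, were found at -150 in *DPPA5* and at -122 in *SOX2*. The octamer letters ATTTGCAT, in 1.77% of all windows, were in none of the 9 windows of these genes. DNA methylation was not analysed here, so that no window is known to have been methylated or demethylated in these cells.

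*ZFP42*, a zinc finger gene used as a marker of undifferentiated stem cells, had an intensity of 1.66 on the mock array, 4600 with DAC, 4170 with OR-2003 and 4870 with OR-2100. Its level was -6.52 on the mock array and 4.71, 4.65 and 4.79 with the drugs in the same order, at least 509-fold, 489-fold and 541-fold higher. The mock array was not well above background and all 3 drug arrays lay far above it, within 0.14 of each other.

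*LIN28B*, whose protein binds the precursors of let-7 in the nucleus, had an intensity of 1.96 on the mock array, 3900 with DAC, 3520 with OR-2003 and 3430 with OR-2100. Its level was -6.28, 4.47, 4.41 and 4.29, at least 432-fold, 414-fold and 381-fold higher with the drugs. Like *ZFP42*, it passed from background to a level well above the 75th percentile with each drug.

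*DPPA2* and *DPPA4* are neighbours whose SAP domain proteins act as partners at the promoters of early embryonic genes. The intensity of *DPPA2* was 1.64 on the mock array and 836, 786 and 763 with the drugs, in the order DAC, OR-2003, OR-2100. Its level of -6.54 became 2.25, 2.24 and 2.12, at least 92.5-fold, 92.2-fold and 84.7-fold higher. *DPPA4* had an intensity of 2.09 on the mock array and 222, 215 and 243 with the drugs, or levels of -6.19, 0.33, 0.37 and 0.47, at least 24.6-fold, 25.2-fold and 27.0-fold higher. Both neighbours were therefore at background on the mock array and above the 75th percentile with every drug.

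*DPPA5*, which codes for a small KH domain protein of stem cells and the early embryo, showed the same pattern. Its intensity was 2.03 on the mock array and 221, 194 and 200 with the drugs. Its level of -6.23 became 0.33, 0.22 and 0.19, at least 24.5-fold, 22.8-fold and 22.2-fold higher.

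The sizes given for these 5 genes rest on how the scanner software corrects background. With normexp correction and an offset of 50, which draws dim probes together by its construction, the lowest difference over the drugs was 6.14 for *ZFP42*, 5.63 for *LIN28B*, 3.79 for *DPPA2*, 1.95 for *DPPA4* and 1.75 for *DPPA5*, below the bounds given above, and 5 of the 10 genes were still counted as induced by each drug. *DPPA4* and *DPPA5* reached only 0.19 to 0.47 with the drugs, and with a 75th percentile taken over brighter probes only (those well above background on every array) 3 of the 10 genes were counted.

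*NANOG*, the homeobox factor of the core network, was the 1 gene that was reduced. Its intensity was 94.9 on the mock array, 10.1 with DAC, 11.1 with OR-2003 and 11.7 with OR-2100. In levels this was -0.68 on the mock array, just over the -1 that counts as positive expression, and -4.12, -3.90 and -3.90 with the drugs. *NANOG* was 10.9-fold lower with DAC and 9.31-fold and 9.32-fold lower with OR-2003 and OR-2100. The DAC array was not well above background, but its level lay over the limit of that array, -4.42, so that 10.9-fold is a point estimate and no bound. All 3 drug arrays lay close to the background limit and the mock array lay apart from them, the opposite of the 5 induced genes. With normexp correction the differences were -1.29, -1.28 and -1.32. Its call rested on a mock level near the threshold, and 0 genes were counted as reduced where the level threshold was 0 or where the percentile came from brighter probes only. *NANOG* has processed pseudogenes that are nearly identical to its transcript, and the files hold no probe letters, so that its own RNA and theirs cannot be told apart.

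*POU5F1*, the POU homeobox factor of the core network, was well above background on all 4 arrays with both probes and was not called by either. The first probe had intensities of 268, 262, 245 and 299 on the mock, DAC, OR-2003 and OR-2100 arrays, or levels of 0.82, 0.57, 0.56 and 0.76. The second had intensities of 18.0, 18.0, 17.5 and 18.2, or levels of -3.08, -3.29, -3.25 and -3.27. The differences from mock were -0.25, -0.25 and -0.05 with the first probe and -0.21, -0.17 and -0.19 with the second while the median of all probes shifted by -0.13, -0.10 and -0.25. Over 7 other settings the differences of the pair ran from -0.48 to 0.17, so that no direction is given. The first probe passed the level of positive expression on every array and the second on none, and *POU5F1* too has expressed pseudogenes that the probes may share. By Euclidean distance over the 3 differences from mock, *LINC02381* (0.018), *PMEL* (0.019) and *KDM5C* (0.025) were most like the first probe, and *ZNF57* (0.018), *ZC2HC1A* (0.023) and *RAB20* (0.029) most like the second, among 21270 named probes well above background on all arrays. Such likeness was common, with 108 and 458 probes within 0.1 of the first and the second probe.

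*SOX2*, the HMG box partner of POU5F1, stayed under the level of positive expression on every array. Its intensities were 3.69, 14.4, 11.0 and 5.81 on the mock, DAC, OR-2003 and OR-2100 arrays, or levels of -5.37, -3.61, -3.92 and -4.92. It was well above background with DAC and OR-2003 only, where it was at least 1.60-fold and 1.29-fold higher.

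*DPPA3* (STELLA), a maternal factor that guards methylation in the zygote, was also near background throughout. Its intensities were 4.09, 7.14, 13.3 and 5.21, or levels of -5.22, -4.63, -3.64 and -5.08, and only the OR-2003 array was well above background, at least 1.57-fold higher than the mock array. With spots this dim, the levels of the 4 arrays have no firm order.

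*LIN28A*, the mainly cytoplasmic relative of *LIN28B*, was not induced with it. Its intensities were 11.2, 7.79, 6.63 and 12.5, or levels of -3.77, -4.50, -4.65 and -3.82 on the mock, DAC, OR-2003 and OR-2100 arrays. It was well above background on the mock and OR-2100 arrays, which differed by -0.05, and was at least 1.57-fold and 1.53-fold lower with DAC and OR-2003. *LIN28B* was thus called with each drug and *LIN28A* with none. With the median of all probes in place of the 75th percentile *LIN28A* was counted as reduced by OR-2003, and its difference there ran from -1.19 to -0.13 over the settings.

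**Figure D2:**
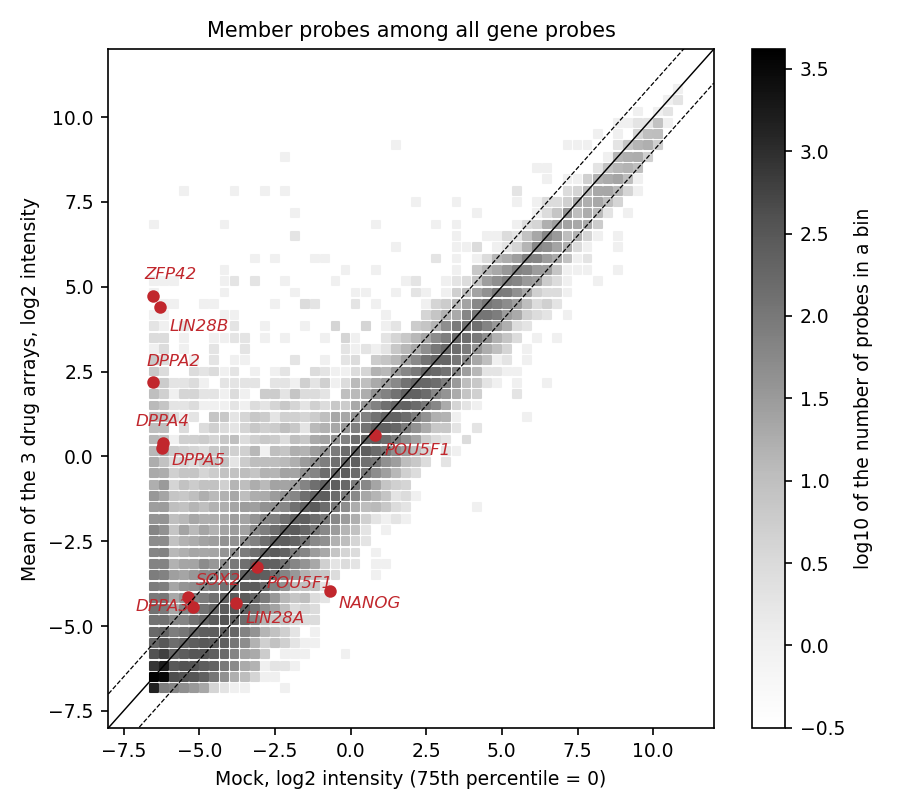
Mean log2 intensity of the 3 drug arrays (y axis) against the mock array (x axis), both with the 75th percentile at 0, for all gene probes binned in grey (darker bins hold more probes, log10 scale) and for the 11 probes as red points. The solid line marks no difference and the dashed lines mark 2-fold. *ZFP42*, *LIN28B*, *DPPA2*, *DPPA4* and *DPPA5* stand above the upper left end of the cloud, *NANOG* stands below the lower dashed line, and both *POU5F1* points lie on the solid line.

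The compounds were compared at the same dose and time for the 7 probes that were well above background on all 3 drug arrays, over 3 pairs of arrays. With 1 array per drug there is no test. Of the 21 differences between drug arrays the largest was 0.20, for the first *POU5F1* probe between OR-2100 and OR-2003, with an interval of -0.20 to 0.60 from the error that the scanner software gives each spot (95%, covering the spot only). *LIN28B* was 0.18 lower with OR-2100 than with DAC (a difference of -0.18, interval -0.58 to 0.22). *ZFP42* differed by 0.14 between OR-2100 and OR-2003 (-0.26 to 0.54), and *DPPA2* by 0.00 between OR-2003 and DAC (-0.40 to 0.40). All 21 intervals held 0, but each was wider than the range of most probes given next, so that holding 0 says little. All 21 differences lay within the central 95% of 17865 probes, those well above background and at -1 or more on all 3 drug arrays. This range was -0.22 to 0.23 for OR-2003 minus DAC, -0.29 to 0.32 for OR-2100 minus DAC and -0.30 to 0.31 for OR-2100 minus OR-2003. The second *POU5F1* probe was dimmer than those probes. The silyl group with 1 propyl chain and the triethylsilyl group thus gave readouts of these probes that were not told apart from each other or from DAC, and differences up to the interval ends of -0.58 and 0.60 are not shown to be absent.

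Genes of related pathways were then examined in lists, with 1 probe per gene. Among 34 other genes of the pluripotency network, 4 were induced by all 3 drugs (11.8%, against 5.27% of all named genes) and 0 were reduced by all. Its median differences, given here and below in the order DAC, OR-2003, OR-2100, were 0.38, 0.45 and 0.33, and 0.08, 0.00 and -0.18 with levels under the background limit of an array set to that limit (the bound below), against -0.12, -0.09 and -0.23 for all named genes, or -0.13, -0.10 and -0.27 at the bound. Over the 10 genes described here the medians were 4.14, 4.02 and 3.43, or 2.64, 2.58 and 2.21 at the bound. *L1TD1*, an RNA-binding gene derived from a transposon and expressed in stem cells, had levels of -3.55 on the mock array and 3.30, 3.29 and 3.37 with the drugs, 115-fold, 114-fold and 121-fold higher. *NR0B1* (DAX1), a nuclear receptor without a DNA-binding domain, was at least 10.9-fold, 10.8-fold and 9.92-fold higher. The zinc finger factor *SALL4* was 4.58-fold, 4.72-fold and 4.60-fold higher, and *TFCP2L1*, a factor of naive pluripotency, 2.39-fold, 2.56-fold and 2.07-fold higher. Most of the list was not called, including *KLF4*, with differences of 0.28, 0.05 and 0.25, and the methyltransferase gene *DNMT3B*, with -0.28, -0.27 and -0.23. A gene without a call was not always unchanged. *FOXD3* was 5.33-fold, 5.30-fold and 5.82-fold higher, but its levels of -1.05 and -1.06 with DAC and OR-2003 fell just short of -1. *KLF2* was 1.74-fold, 1.71-fold and 2.08-fold lower.

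Genes of zygotic genome activation are switched on in the cleavage stage embryo. Of 20 on the arrays, 9 were induced by all 3 drugs (45.0%) and 0 were reduced, with median differences of 4.35, 4.29 and 4.41, or 2.67, 2.62 and 2.80 at the bound. A reduced call needs a mock level of -1 or more, which only *DUX4* had in this list. The count of 0 reduced genes was thus nearly fixed in advance. *RFPL4B* was at least 235-fold, 229-fold and 210-fold higher, *TRIM43* 262-fold, 249-fold and 268-fold, *TRIM49* 174-fold, 156-fold and 177-fold, and the zinc finger gene *ZSCAN5B* 96.4-fold, 93.0-fold and 104-fold. *ZSCAN4*, a marker of this stage, was at least 14.7-fold, 11.9-fold and 12.9-fold higher. *DUX4*, whose factor drives many of these genes, has 6 probes, and only the brightest was used. That probe had levels of 7.60 on the mock array and 7.61, 7.62 and 7.56 with the drugs, differences of 0.01, 0.02 and -0.04. The other *DUX4* probes are not given, so that *DUX4* is not shown to be unchanged. The *TRIM*, *RFPL*, *PRAMEF* and *DUX4* genes belong to families with near-identical copies, and their values are uncertain for that reason.

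Of 21 genes of the oocyte and of maternal effect, 5 were induced by all 3 drugs (23.8%) and 1 was reduced (4.76%). The median differences were -0.03, 0.55 and -0.02, or -0.13, -0.10 and -0.27 at the bound, which are the differences between the background limits and those of all named genes too. *OOEP* and *KHDC3L*, whose proteins belong to the subcortical maternal complex, were at least 723-fold, 746-fold and 679-fold and at least 150-fold, 146-fold and 151-fold higher. *NLRP7*, a gene of the same maternal pathway, was at least 19.7-fold, 21.6-fold and 19.7-fold higher, and *NLRP4* 11.8-fold, 11.8-fold and 10.8-fold. *TLE6*, another member of the maternal complex, was reduced, from a level of 0.34 to -1.41, -1.52 and -1.50. The growth factor genes of the oocyte, *GDF9* and *BMP15*, were not well above background on any array.

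Lists around LIN28 were taken next. Of 8 genes that make or break down let-7, 0 were induced and 0 reduced, with median differences of -0.15, -0.18 and -0.10. The uridylyltransferase gene *TUT4*, which acts with LIN28A on the let-7 precursor, differed by -0.87, -0.79 and -0.73, under the 2-fold threshold. Of 16 let-7 target genes, 3 were induced (18.8%) and 1 was reduced (6.25%), with median differences of 0.10, 0.22 and 0.30, or 0.00, -0.10 and 0.00 at the bound. *IGF2BP1*, an oncofetal RNA-binding gene, went from a level of -3.76 to -0.06, -0.11 and -0.15, 13-fold, 12.6-fold and 12.3-fold higher. *ARID3B* was 2.89-fold, 2.88-fold and 2.64-fold higher and *CDK6* 3.03-fold, 2.91-fold and 2.34-fold. *HMGA2*, a chromatin protein gene known as a strong let-7 target, was reduced, 2.19-fold, 2.30-fold and 2.22-fold lower. Of 16 genes of the trophectoderm and hypoblast, the outer and lower layers of the blastocyst, 3 were induced (18.8%) and 0 were reduced, with median differences of 0.89, 1.01 and 0.71, or 0.56, 0.43 and 0.62 at the bound. These were *SOX17*, at least 22.8-fold, 22.5-fold and 26.6-fold higher, *FOXA2*, at least 10.4-fold, 12.1-fold and 14.3-fold, and *TEAD4*, 2.17-fold, 2.24-fold and 2.13-fold.

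**Figure D3:**
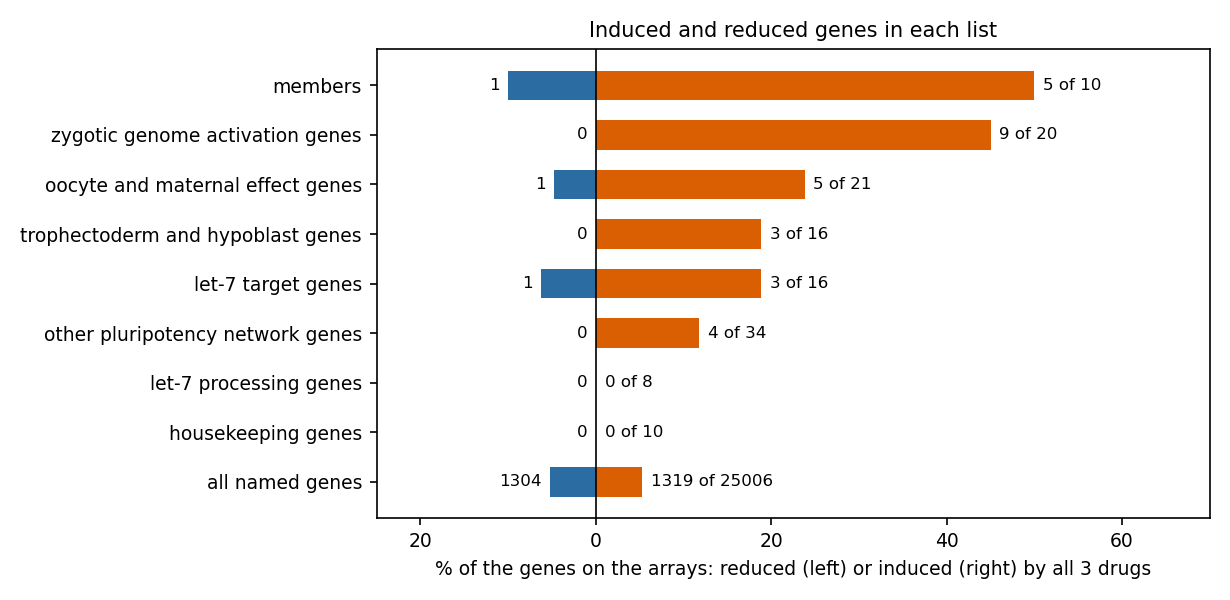
Share of the genes of 7 lists, of the 10 genes described here (members) and of all named genes that were induced by all 3 drugs (orange, to the right) or reduced by all 3 (blue, to the left), in percent of the genes on the arrays, with their numbers. Lists of cell type markers and of demethylation controls are not drawn. The orange bars stand for 5 of the 10 genes and for 9 of 20 genes of zygotic genome activation, against 5.27% of all named genes.

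Markers of other cell types moved with the drugs as well. All 6 germ cell markers were induced by all 3 drugs, 0 of 6 were well above background without drug, and their summed level, with the 75th percentile counted as 1, was 0.220 on the mock array and 17.9 to 19.7 with the drugs. The largest differences were those of *MAEL*, *DAZL*, *TEX101* and *SYCP3*, with at least 110-fold, 68.8-fold, 60.3-fold and 63.1-fold higher levels with DAC. For *SYCP3* the fold is set against its own mock level of -3.94 and is no bound. Of 8 fibroblast markers 1 was induced, *THY1*, and the summed level was 2.28 on the mock array and 10.1 to 10.5 with the drugs. Of the 8, 4 were at background on the mock array and well above it on all 3 drug arrays. Besides *THY1* these were *DCN*, at least 6.63-fold, 7.26-fold and 6.60-fold higher, *FAP*, at least 2.35-fold, 2.51-fold and 2.60-fold, and *COL1A2*, at least 1.56-fold, 2.01-fold and 1.79-fold, while *COL3A1* and *LUM* were not well above background on any array. *COL1A1* had levels of 0.99 on the mock array and 1.82, 1.76 and 1.89 with the drugs. *PDGFRB* went the other way, 1.55-fold, 1.22-fold and 2.12-fold lower. The summed level rests mostly on *THY1*, with levels of 2.57 to 2.65 with the drugs, and on *COL1A1*, and does not show a rise of the whole list. Among the leukocyte markers *CD14* was induced, 3.24-fold, 3.24-fold and 3.27-fold higher, and *PTPRC*, the common leukocyte antigen gene, differed by -0.31, -0.27 and -0.16. Of 12 colonic epithelial markers *LGALS4* was induced and *EPCAM* and *CDH1* were reduced, from levels of 6.81 to 5.32, 5.29 and 5.36 and from 3.88 to 2.79, 2.70 and 2.63. The keratin genes *KRT8*, *KRT18* and *KRT19* had levels of 6.41 or more on all 4 arrays, and *CDH17* and *GPA33* were not well above background on any. *KRT20*, at least 7.90-fold, 8.71-fold and 7-fold higher, and *VIL1*, at least 1.37-fold, 1.71-fold and 1.79-fold, were at background on the mock array only and stayed under the level of positive expression with the drugs. The part of these markers in the differences of the 10 genes was not tested. More cells with a gene on and more RNA per cell cannot be told apart in such bulk samples. As controls, *UCHL1* and *SFRP1*, which are known to be silenced by methylation in HCT116, were induced by all 3 drugs, at least 1910-fold and 9.35-fold higher with DAC, and *DNMT1*, the target of DAC, had differences of -0.30, -0.18 and -0.38. The 10 housekeeping genes gave 0 calls, with median differences of -0.07, -0.10 and -0.19. Their summed level was 2590 on the mock array and 2090, 2110 and 1890 with the drugs, so that the list as a whole was not level.

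Neighbours on the chromosome were examined last, as the 3 nearest coding genes on each side of each gene, a rule added after the values were seen. Of 48 such neighbours on the arrays, 8 were induced by all 3 drugs (16.7%, against 5.27% of all named genes) and 1 was reduced (2.08%, against 5.21%). Beside *DPPA5* on chromosome 6 stood 4 of the 8. *KHDC1*, a KH domain gene, had levels of 0.40 on the mock array and 1.98, 2.06 and 2.07 with the drugs. *KHDC3L* and *OOEP* followed on the other side, with the values given above, and then the helicase gene *DDX43*, with levels of -5.45, 3.01, 3.05 and 2.95, at least 158-fold, 161-fold and 151-fold higher. Every coding gene measured between *KHDC1* and *DDX43* was thus induced, whereas the potassium channel gene *KCNQ5* beyond them differed by -0.07, -0.18 and 0.27.

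Among the nearest coding genes of *NANOG*, only *SLC2A14* and *FOXJ2* had the mock level of -1 or more that a reduced call needs (0.53 and -0.74). Neither was reduced with *NANOG*. On its right, the glucose transporter genes *SLC2A14* and *SLC2A3* were induced, 10.9-fold, 11.6-fold and 10.0-fold and 16.8-fold, 16.4-fold and 14.4-fold higher, although this pair is nearly identical in sequence and the values may be shared. *FOXJ2* next to them differed by 0.00, -0.03 and -0.02. On its left, *NANOGNB* and *CLEC4C* were not well above background on any array, and *GDF3*, a growth factor gene of the same stem cell locus beyond *DPPA3*, was not either. The same held for *SOX2-OT*, the long RNA gene around *SOX2*.

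Next to *ZFP42*, *TRIML2* was 8.98-fold, 8.24-fold and 10.1-fold higher, from a level of 1.98 on the mock array, and the cadherin gene *FAT1* on the other side differed by -0.82, -0.85 and -0.74. *HACE1*, a ubiquitin ligase gene, was reduced beside *LIN28B*, with differences of -1.05, -1.01 and -1.16, and *POPDC1* on its other side was 1.99-fold, 1.76-fold and 2.39-fold higher but was not called by all drugs. Beside *DPPA2* and *DPPA4*, the germ cell gene *MORC1* was at least 3.61-fold, 2.33-fold and 3.09-fold higher and *C3orf85* at least 5.04-fold, 5.59-fold and 4.86-fold, both without reaching the level of positive expression, and the adhesion gene *NECTIN3* differed by -0.87, -0.80 and -0.82. *CD52*, the third gene to the left of *LIN28A*, was induced, 5.30-fold, 4.24-fold and 4.67-fold higher, although *LIN28A* and its nearest left neighbour *ZNF683* were not. The neighbours of *POU5F1* included *TCF19*, with differences of 0.72, 0.59 and 0.51, and the class I antigen genes *HLA-C* and *HLA-B*, between -0.01 and 0.17.

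**Figure D4:**
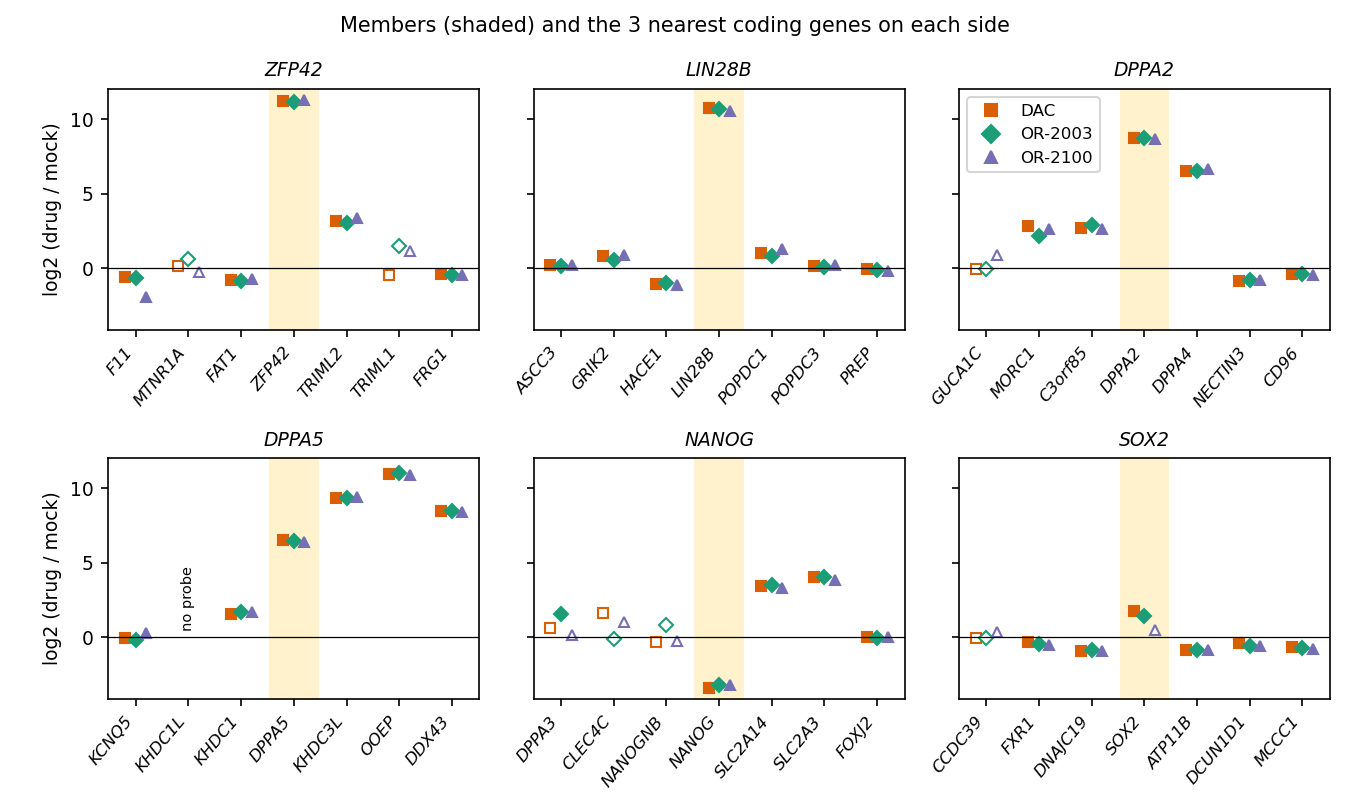
Difference from mock (y axis, log2) with DAC, OR-2003 and OR-2100 for 6 genes (shaded) and their 3 nearest coding genes on each side in chromosome order (x axis, not to scale). Open symbols were not well above background on either array of the comparison, and *KHDC1L* had no probe. Around *DPPA5* the points of 5 genes in a row lie above 1, around *NANOG* those of *SLC2A14* and *SLC2A3* lie above 3 and those of *NANOG* below -3, and around *LIN28B* and *SOX2* the neighbours lie between -1.16 and 1.26.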

How the data were processed

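One Agilent SurePrint G3 Human GE v3 array (one colour) was hybridized per condition of HML58-3 cells, 4 in all. The authors deposited the scanner output, with the intensity of every spot as corrected for background by Feature Extraction 12.1.0.3 and the error of that intensity, and a series table with the same values. Here, control spots and spots marked as non-uniform or outliers were left out, log2 intensities were averaged per probe, and every array was scaled to a 75th percentile of 0 over its gene probes, as the study's methods do. Those methods give no rule for reduced probes, so that the mirror image was used. A RefSeq gene table (GRCh38.p14) named 34892 probes by accession. The array was annotated on hg19, and no coordinates of that table are given. For gene lists the brightest probe stood for a gene. The genes named are the 10 genes, the control genes, up to 4 induced and 2 reduced genes of each list with the largest mean differences, the nearest genes on each side and the genes most like *POU5F1*. *ZSCAN4*, *DUX4*, *KLF4*, *DNMT3B*, *FOXD3*, *KLF2*, *TUT4*, *GDF9*, *BMP15*, the marker genes that were not called and the other neighbours were picked after their values were seen. The 10 genes and the lists were chosen with earlier results of these data known. Of the leukocyte list, 1 result is not reported here. Whether the conditions were separate cultures is not given in the sources used here. The counting was tested on simulated data. Python 3.11.15, numpy 2.4.6, pandas 2.3.3, R 4.3.3 and limma 3.58.1 (normexp, offset 50) were used.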

Additional observations from a re-analysis of the deposited data

How the results depend on the processing

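With 1 array per condition, no replicate could be left out and no test was run. No paired analysis was possible because there was only 1 array for each condition. Alternatives were normexp background correction, quantile normalization, another percentile, the median, a floor at the highest background limit (-4.29), marked spots kept, the series table, 4-fold in place of 2-fold, a level threshold of 0 or none, and averaging over probes within a gene. Of 88 counts of induced or reduced genes, 75 stayed within 1.5 times and 13 moved. When the 75th percentile was taken over brighter probes only (those well above background on every array), 3 genes were induced and 0 reduced by each drug and by all 3, against 5 and 1. With a level threshold of 0, 0 genes were reduced by each drug and by all 3. With the median of all probes, 2 genes were reduced by OR-2003. The median shifted the median difference of all probes by -0.12, -0.22 and -0.09 (in the order DAC, OR-2003, OR-2100), and the percentile of brighter probes by 0.20, 0.20 and 0.22. The sign held over 7 settings for *ZFP42* (6.14 to 11.54), *LIN28B* (5.63 to 10.94), *DPPA2* (3.79 to 8.98), *DPPA4* (1.95 to 6.88), *DPPA5* (1.75 to 6.76) and *NANOG* (-3.56 to -1.28), with the ends nearest 0 from normexp. Zero was crossed by *POU5F1* (-0.48 to 0.17), *SOX2* (-0.13 to 1.95), *LIN28A* (-1.19 to 0.17) and *DPPA3* (-0.03 to 1.78). With normexp the median difference of the 10 genes was 1.00, 0.98 and 0.88, that of the genes of zygotic genome activation 0.86, 0.83 and 0.80, and that of the other pluripotency genes -0.03, 0.00 and -0.06. The series table gave identical values and tests nothing. Keeping marked spots tests next to nothing either, since none was of the 10 genes, and averaging over probes could change only *POU5F1*. These settings are included in the 75 counts that stayed, and the series table and marked spots also in the 7 settings. Signal over background limits *SOX2*, *DPPA3* and *LIN28A*, which were well above background on only some arrays.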

Other observations

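The arrays also hold 12 probes for long noncoding RNAs whose names in the files derive from a nearby gene described above. They may be transcribed from either strand at some distance and do not measure that gene. Of these, 9 were not well above background on any array and 3 were well above background on all 4. By all 3 drugs 0 were induced and 1 was reduced, against 3.13% and 3.41% of all probes. With 12 probes such counts do not set them apart from other probes. *lnc-ZFP42-7:2* had a level of -0.90 without drug and of -2.25, -2.06 and -2.35 after treatment (DAC, OR-2003, OR-2100), and was counted as reduced by all 3 drugs, whereas *ZFP42* itself was induced by all 3. *lnc-LIN28B-1:4* had levels of -0.75, -1.41, -1.65 and -1.62, with differences of -0.66, -0.91 and -0.87 that did not reach 2-fold, whereas *LIN28B* was induced. The level of *lnc-SOX2-1:1* was -3.18, -3.70, -3.37 and -3.95, under the level of positive expression on every array. No value here has a replicate.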
